A study of Mus musculus with 12 samples.

Results

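Glucose entry and glycogen turnover in mouse quadriceps were followed through 8 genes: Slc2a4, Hk2, Gys1, Pygm, Gbe1, Phka1, Ppp1r3c and Ugp2. Every probe set, the group of short oligonucleotides that reports 1 transcript, whose array annotation gave one of these symbols alone was taken. This gave 17 of the 22626 probe sets without controls, and 0 further probe sets listed a member beside another gene. All 17 lay among the 13575 probe sets tested, those in the upper 60% by mean log2 signal, a floor that here stood at a signal of 28.4.

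The mice were of the inbred strain C57Bl/6J, with no engineered allele given, and all were studied over 4 weeks. Sedentary mice received vehicle (the group called vehicle) or 5 mg/kg per day of GW1516 (called GW), a synthetic ligand that activates PPARδ, a nuclear receptor of fat metabolism. Treadmill-trained mice received vehicle (called exercise) or GW1516 at that dose (called combination). Each group had 3 arrays, and each array carried a pool of the RNA of 3 mice, so that the p-values reflect differences among pools and not among single mice. Age, sex, the route of dosing and the training speed were not given in the sources used here.

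Skeletal muscle takes up glucose when the transporter GLUT4, the product of Slc2a4, is moved from vesicles to the cell surface by insulin or by contraction. The glucose is trapped as glucose 6-phosphate by hexokinase and can be stored as glycogen, which glycogen synthase builds and glycogen phosphorylase breaks down during work. Phosphorylase kinase switches phosphorylase on, while protein phosphatase 1, held on the glycogen particle by targeting subunits such as the product of Ppp1r3c, switches synthase on and phosphorylase off. Training is known to raise GLUT4 and glycogen in muscle, and PPARδ agonists are known for shifting muscle fuel use toward fatty acids.

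None of the 17 probe sets passed an adjusted p of 0.05 in any of the 8 comparisons made, which is 0 of 136 tests (limma, with Benjamini-Hochberg adjustment over all 13575 probe sets). The member nearest to the threshold was Ppp1r3c in the combination group, at 0.689-fold the vehicle level (95% interval 0.591 to 0.804, adjusted p = 0.0612). Next came Slc2a4, at 0.849-fold with GW1516 averaged over sedentary and trained mice (0.787 to 0.917, adjusted p = 0.0873), in one of its probe sets. Against vehicle, the 95% intervals lay within 1.5-fold in either direction for all probe sets except both of Ppp1r3c in combination, the other set of Slc2a4 in exercise, and that of Gbe1, whose signal was low and scattered.

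**Figure D1:**
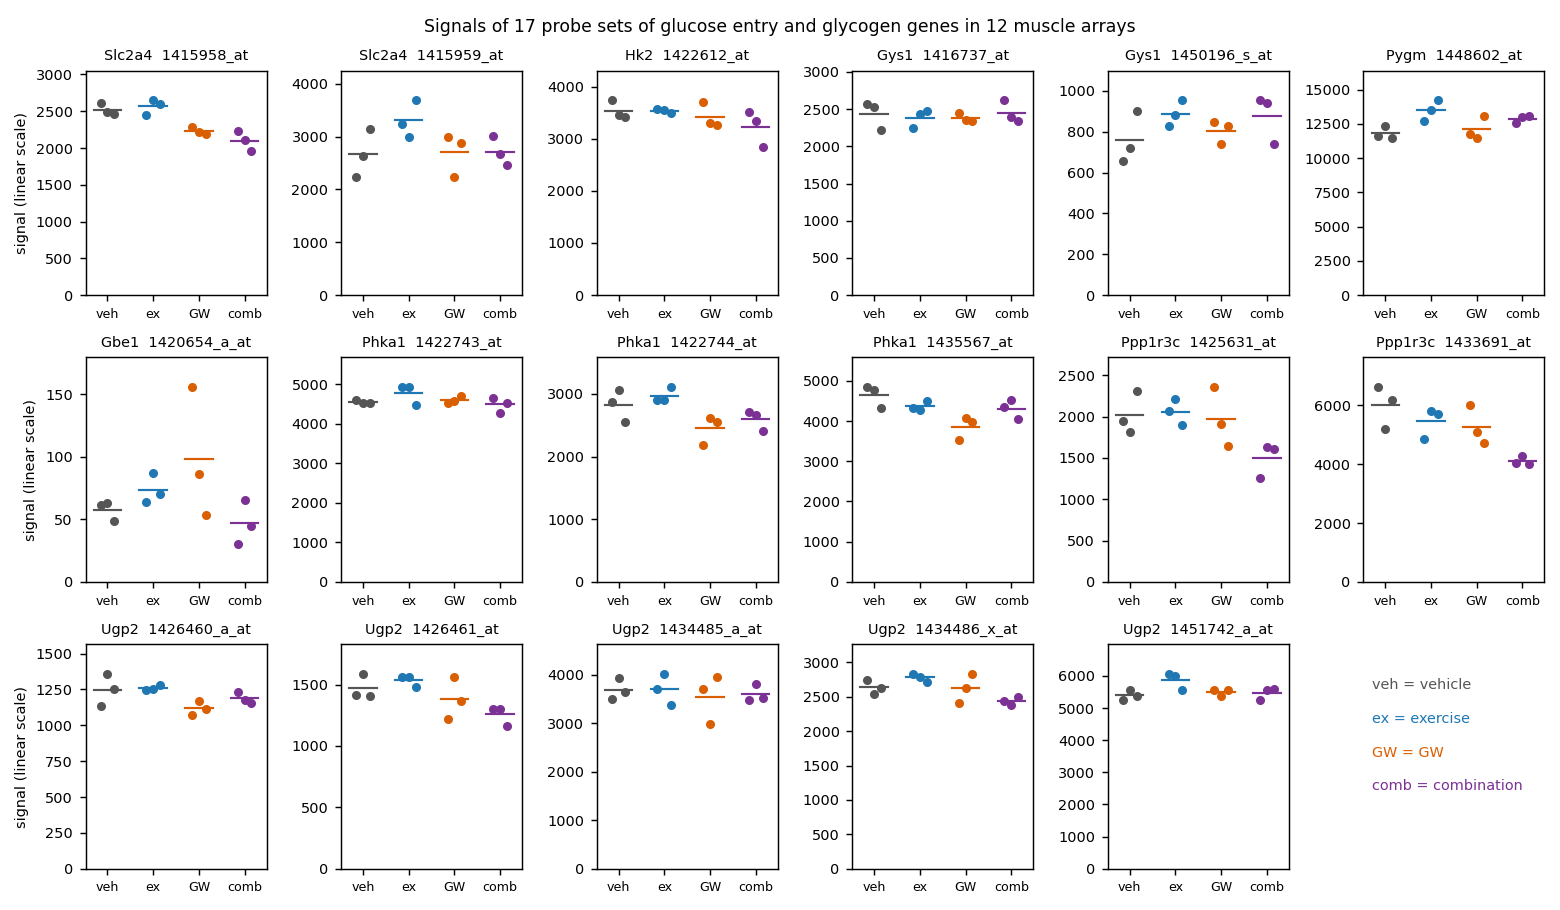
Deposited signal (linear scale from 0) of each of the 17 probe sets in the 12 arrays, 1 panel per probe set, with points for arrays and a bar for the mean of the 3 arrays of a group. Both Ppp1r3c panels show the combination arrays as the lowest, the Slc2a4 panel of 1415958_at shows the GW and combination arrays below the others, and Gbe1 shows a spread in GW from 53.8 to 156.

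The arrays were first checked against the labelled tissue. The summed signal of 7 skeletal muscle fibre markers lay between 105036 and 133338 in all 12 arrays. It was 107971 to 111715 in vehicle, 127039 to 131035 in exercise, 105036 to 133338 in GW and 114884 to 128365 in combination. The exercise arrays thus lay above all vehicle arrays. The summed signal of 4 slow fibre markers lay between 43.1 and 199, with 43.1 to 69.6 in vehicle, 125 to 184 in exercise, 75.5 to 199 in GW and 50.5 to 105 in combination. These are sums of low signals, and their differences were not tested. Myh7, a slow fibre gene, read 17.7, 3.09 and 3.80 in vehicle and 3.05, 12.8 and 5.09 in exercise. Those Myh7 readings lay below the floor for testing and overlapped, so Myh7 did not share the higher exercise sum. In GW, Myh7 read 53.9, 24.7 and 4.50. Fat cell markers (5 of the 7 listed were on the array) summed to 4642 and 7069 in combination arrays 2 and 3, and to between 1736 and 2547 in the other 10. The 3 liver markers summed to between 252 and 508 in vehicle and between 28.8 and 146 elsewhere, and no marker was at 0. In whole muscle, fewer cells of a type and less RNA per cell cannot be told apart. The median signal of an array lay between 48.4 and 57.2.

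The largest difference from vehicle in relation to its error was in Ppp1r3c (Entrez gene 53412, chromosome 19, 36731731 to 36736604 on GRCm38.p6), which encodes PTG, the subunit that brings protein phosphatase 1 to glycogen and favours glycogen storage. Its promoter is shown because it was the only member promoter in the RefSeq table with the E box letters CACGTG, which proteins of the basic helix-loop-helix family read, among them the glucose-responsive pair MLX and its partners. The promoter of Gys1, whose product is the enzyme that the phosphatase acts on, is set beside it as one without the letters. Both are the 150 bases before the gene start in RefSeq's GRCm38.p6 sequence, written 5′ to 3′ on the gene's strand, chr19:36736605-36736754 (minus strand) for Ppp1r3c and chr7:45434689-45434838 (plus strand) for Gys1. Capitals mark CACGTG.
Ppp1r3c: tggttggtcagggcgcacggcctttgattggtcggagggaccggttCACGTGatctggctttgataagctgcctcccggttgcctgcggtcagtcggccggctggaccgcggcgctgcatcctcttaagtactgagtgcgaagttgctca
Gys1: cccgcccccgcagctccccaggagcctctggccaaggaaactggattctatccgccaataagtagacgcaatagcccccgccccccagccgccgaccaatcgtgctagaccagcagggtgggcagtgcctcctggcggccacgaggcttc

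The letters CACGTG, which read the same on both strands, stood 104 to 99 bases before the Ppp1r3c start. They occurred in 7.15% of the 32851 RefSeq windows that run from 250 bases before to 50 after a start. Of the 8 members, 7 had a window in that table, with 8 windows between them, and 1 gene held the letters. TAAAAATA, the core of the site of MEF2, a factor known to act on Slc2a4, occurred in 2.72% of all windows and in 0 member windows, counting both strands. AGGTCA, a single copy of the element that nuclear receptors such as PPARδ bind, occurred in 16.3% of all windows and in 0 member windows, counting both strands. The motifs do not overlap one another. These matches are letters only, and no binding was measured. No window was listed for Slc2a4.

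Probe set 1433691_at of Ppp1r3c read 6627, 5191 and 6176 in the 3 vehicle arrays and 4854, 5803 and 5698 in the exercise arrays. It read 5995, 5102 and 4730.1 in the GW arrays and 4048, 4281 and 4018 in the combination arrays. All 3 combination arrays lay below the other 9, while vehicle, exercise and GW overlapped one another. The mean was 5998 ± 734 (SD, n = 3) in vehicle, 5452 ± 520.2 in exercise, 5276 ± 650.0 in GW and 4116 ± 144 in combination. The order of the means thus ran from vehicle through exercise and GW to combination, and the first 3 neighbours in it differed by less than their spread.

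Probe set 1425631_at of the same gene read 1948, 1809 and 2309 in vehicle, 2062, 2216 and 1904 in exercise, 2361, 1912 and 1649 in GW, and 1252, 1632 and 1605 in combination. Here too the combination arrays were the lowest of all 12, and the gap to GW array 3 was small. The log2 signals of both probe sets had a correlation of r = 0.81 over the 12 arrays. Of all probe sets tested, 0.840% (114 of 13575) had their 3 combination arrays below the other 9, and among the members these were both probe sets of Ppp1r3c.

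Against vehicle, the log2 difference of the combination was -0.54 ± 0.10 (SE) for 1433691_at and -0.44 ± 0.14 for 1425631_at (limma adjusted p = 0.0612 and 0.293). In the order of p over all 13575 probe sets, 1433691_at stood at place 27 in this comparison. Against exercise the log2 differences were -0.40 and -0.47 (adjusted p = 0.191 and 0.29), and against GW they were -0.35 and -0.39 (adjusted p = 0.716 and 0.728). Neither treatment alone gave a difference of that size: GW against vehicle was -0.18 ± 0.10 and -0.04 ± 0.14, and exercise against vehicle was -0.13 ± 0.10 and 0.03 ± 0.14. The interaction, the drug difference with training minus that without, was -0.22 ± 0.15 and -0.43 ± 0.19 (limma adjusted p = 0.791 and 0.727). The test of an effect of the combination beyond the sum of both treatments was thus not passed.

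The call on 1433691_at in the combination depended on the setting. It passed the threshold after quantile normalization (adjusted p = 0.04), with array weights (0.0482), without vehicle array 2 (0.0474) and without GW array 1 (0.0312), and the range over all 23 alternatives was 0.0312 to 0.444. Fat cell markers were high in combination arrays 2 and 3, and their part in the difference was not tested. Without those arrays combination array 1 alone stands for the group, its spread is taken from the other groups, and the differences from vehicle are the values of that array: -0.56 for 1433691_at and -0.68 for 1425631_at, in which it was the lowest of the 12. The correlation of log2 signal with the log2 sum of the fat cell markers was -0.47 for 1433691_at and -0.25 for 1425631_at over the 12 arrays, which share scaling and tissue.

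**Figure D2:**
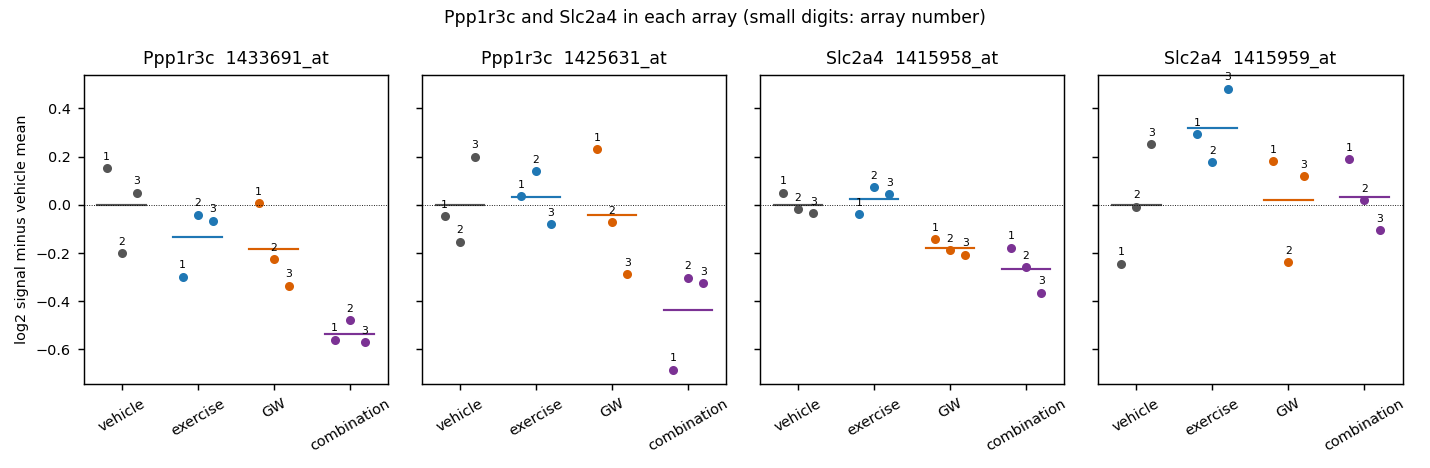
Log2 signal minus the vehicle mean for both probe sets of Ppp1r3c and both of Slc2a4, with points for arrays (small digits give the array number) and bars for group means. The combination arrays are the lowest in both Ppp1r3c panels, and the 6 arrays with GW1516 lie below the 6 without it in 1415958_at of Slc2a4 while the groups overlap in 1415959_at.

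Slc2a4 (Entrez gene 20528, chromosome 11, 69942286 to 69948216) encodes GLUT4, the insulin- and contraction-responsive glucose transporter of muscle and fat. Probe set 1415958_at read 2612, 2491 and 2463 in vehicle, 2454, 2654 and 2598 in exercise, 2285, 2214 and 2185 in GW, and 2230.0, 2106 and 1959 in combination. All 6 arrays with GW1516 lay below all 6 without it. The vehicle and exercise arrays overlapped, and so did those of GW and combination. This full separation was found in 0.214% of the probe sets tested (29 of 13575) and in 1 member probe set.

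Averaged over sedentary and trained mice, GW1516 went with a log2 difference of -0.24 ± 0.05 in 1415958_at (limma adjusted p = 0.0873). Within sedentary mice it was -0.18 ± 0.07 (adjusted p = 0.738), and within trained mice, as combination against exercise, -0.29 ± 0.07 (adjusted p = 0.169). The interaction was -0.11 ± 0.10 (limma adjusted p = 0.834). The averaged difference passed the threshold with quantile normalization (adjusted p = 0.0485) and with array weights (0.0431), in a range of 0.0431 to 0.594 over the alternatives. Without combination arrays 2 and 3, those with high fat cell markers, it was -0.19 ± 0.06 (adjusted p = 0.594), with 1 combination array left, assumed to vary like the other groups. The correlation with the log2 fat cell sum over the 12 arrays was -0.63.

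The other probe set of the gene, 1415959_at, read 2233, 2633 and 3151 in vehicle, 3241, 2993 and 3697 in exercise, 3002, 2244 and 2874 in GW, and 3017, 2681 and 2459 in combination. Exercise had the highest mean, and all 4 groups overlapped one another. Exercise against vehicle was 0.32 ± 0.13 on the log2 scale, or 1.25-fold with an interval of 1.02 to 1.52 (limma adjusted p = 0.433), where 1415958_at gave 0.03 ± 0.07 (0.931). For GW1516 averaged, 1415959_at gave -0.13 ± 0.09 (adjusted p = 0.759). Combination against exercise was alike in both sets, at -0.28 ± 0.13 in 1415959_at (limma adjusted p = 0.551) and -0.29 ± 0.07 in 1415958_at. GW against vehicle was 0.02 ± 0.13 in 1415959_at and -0.18 ± 0.07 in 1415958_at. The correlation between both probe sets over the 12 arrays was r = 0.34. A statement about Slc2a4 in exercise or GW against vehicle thus rests on which of them is read.

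Hk2 (Entrez gene 15277, chromosome 6, 82725025 to 82774454) encodes hexokinase II, the main hexokinase of insulin-responsive muscle. Its probe set 1422612_at read 3749, 3455 and 3428 in vehicle, 3572, 3548 and 3504 in exercise, 3705, 3303 and 3271 in GW, and 3511, 3351 and 2849.8 in combination. All 4 groups overlapped, and the lowest value was combination array 3. The log2 difference from vehicle was 0.00 ± 0.08 for exercise, -0.05 ± 0.08 for GW and -0.14 ± 0.08 for combination (limma adjusted p = 1, 0.94 and 0.625). The interval for exercise ran from 0.882-fold to 1.13-fold.

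Ugp2 (Entrez gene 216558, chromosome 11, 21321126 to 21371267) encodes the pyrophosphorylase that makes UDP-glucose, the sugar donor of glycogen synthase, and it was read by 5 probe sets. The one with the highest signal, 1451742_a_at, read 5239, 5574 and 5388 in vehicle, 6069, 5999 and 5551 in exercise, 5574, 5387 and 5559 in GW, and 5253, 5558 and 5598 in combination. Exercise was the highest group by its mean but overlapped each of the others (log2 0.12 ± 0.06 against vehicle, limma adjusted p = 0.522).

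Probe set 1426461_at of Ugp2 read 1417, 1588 and 1405 in vehicle, 1564, 1561 and 1477 in exercise, 1221, 1559.7 and 1368 in GW, and 1301, 1303 and 1165 in combination. The combination arrays lay below all vehicle and all exercise arrays but overlapped GW. The share of all probe sets with 3 arrays wholly apart from 3 others was not counted, here or for the members below. An exact permutation test of such a separation reaches p = 0.1 at the lowest. The log2 difference was -0.23 ± 0.10 against vehicle and -0.29 ± 0.10 against exercise (limma adjusted p = 0.477 and 0.384). In 1434486_x_at, a set whose suffix marks probes that can match other transcripts, combination against exercise was -0.19 ± 0.07 (adjusted p = 0.464), again with no overlap. The remaining sets 1426460_a_at and 1434485_a_at gave -0.09 ± 0.09, also with no overlap, and -0.04 ± 0.10 in that comparison (limma adjusted p = 0.82 and 0.958). Correlations between the 5 sets over the 12 arrays ran from -0.01 to 0.63.

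Gys1 (Entrez gene 14936, chromosome 7, 45434839 to 45456617) encodes muscle glycogen synthase, which lengthens the glycogen chains. Probe set 1416737_at read 2573, 2534 and 2216 in vehicle, 2249, 2439.8 and 2473 in exercise, 2453, 2348 and 2344 in GW, and 2625, 2392 and 2341 in combination. Its highest array was 1.18-fold its lowest, against a median ratio of 1.86 over all probe sets tested. Its mean log2 signal lay above that of 97.5% of the probe sets without controls. The ratio was not compared with that of probe sets of like signal. No group stood apart, and the log2 differences from vehicle were -0.03 ± 0.08 for exercise, -0.03 ± 0.08 for GW and 0.01 ± 0.08 for combination. Probe set 1450196_s_at, whose suffix marks probes shared by several transcripts, read between 657 and 956. It gave 0.24 ± 0.13 for exercise and 0.22 ± 0.13 for combination (limma adjusted p = 0.537 and 0.612), with a correlation of -0.10 to 1416737_at over the 12 arrays.

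Gbe1 (Entrez gene 74185, chromosome 16, 70313949 to 70569720) encodes the branching enzyme, which gives glycogen its branch points. Probe set 1420654_a_at read 61.4, 63.4 and 48.5 in vehicle, 64.1, 86.9 and 70.4 in exercise, 156, 85.9 and 53.8 in GW, and 30.2, 65.8 and 44.5 in combination. The exercise arrays lay above the vehicle arrays, a separation not set against its share over all probe sets, and GW overlapped every group. Signals of this size are close to the floor of 28.4, and the highest array was 5.16-fold the lowest. The log2 difference of combination from GW was -1.01 ± 0.36 and the interaction was -1.36 ± 0.52 (limma adjusted p = 0.731 and 0.718). GW against vehicle was 0.64 ± 0.36, with an interval of 0.912-fold to 2.68-fold. These were the largest differences among the members and also the least precise.

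Pygm (Entrez gene 19309, chromosome 19, 6384408 to 6398464) encodes muscle glycogen phosphorylase, which releases glucose 1-phosphate from glycogen. Probe set 1448602_at read 11636, 12365 and 11446 in vehicle, 12735, 13532 and 14256 in exercise, 11736, 11501 and 13065 in GW, and 12548, 13023 and 13046 in combination. All exercise arrays and all combination arrays lay above the vehicle arrays, while GW overlapped each of these groups. How many of all probe sets were separated in this way was not counted. Exercise against vehicle was 0.19 ± 0.07 on the log2 scale, or 1.14-fold with an interval of 1.04 to 1.26 (limma adjusted p = 0.343). The summed muscle fibre markers were also higher in exercise than in vehicle (127039 to 131035 against 107971 to 111715). Their part in this difference was not tested. Training averaged over vehicle and GW1516 gave 0.14 ± 0.05 (adjusted p = 0.4). GW1516 averaged gave -0.02 ± 0.05, an interval of 0.922-fold to 1.06-fold.

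Phka1 (Entrez gene 18679, X chromosome, 102513975 to 102644301) encodes the muscle alpha subunit of phosphorylase kinase, which carries the regulatory phosphorylation sites of that enzyme. Probe set 1435567_at read 4851, 4765 and 4334 in vehicle, 4323, 4284 and 4498 in exercise, 3522, 4077 and 3971 in GW, and 4349, 4528 and 4050.0 in combination. The GW arrays lay below all vehicle and all exercise arrays, and the combination arrays overlapped each other group. These separations, too, were not set against their share over all probe sets. GW against vehicle was -0.27 ± 0.08 (0.829-fold, interval 0.740 to 0.928, limma adjusted p = 0.488), and the interaction was 0.25 ± 0.11 (0.727).

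Probe set 1422744_at of Phka1 read 2875, 3063 and 2551 in vehicle, 2903, 2899.6 and 3115 in exercise, 2183, 2614 and 2554 in GW, and 2719, 2658 and 2404 in combination. Both drug groups lay below the exercise arrays, and both overlapped vehicle. GW1516 averaged gave -0.20 ± 0.06 here and -0.15 ± 0.05 in 1435567_at (limma adjusted p = 0.373 and 0.472), and these sets had a correlation of r = 0.83. The third set, 1422743_at, read between 4273 and 4931 and gave -0.04 ± 0.05 (adjusted p = 0.873), with correlations of 0.22 and -0.10 to the others.

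**Figure D3:**
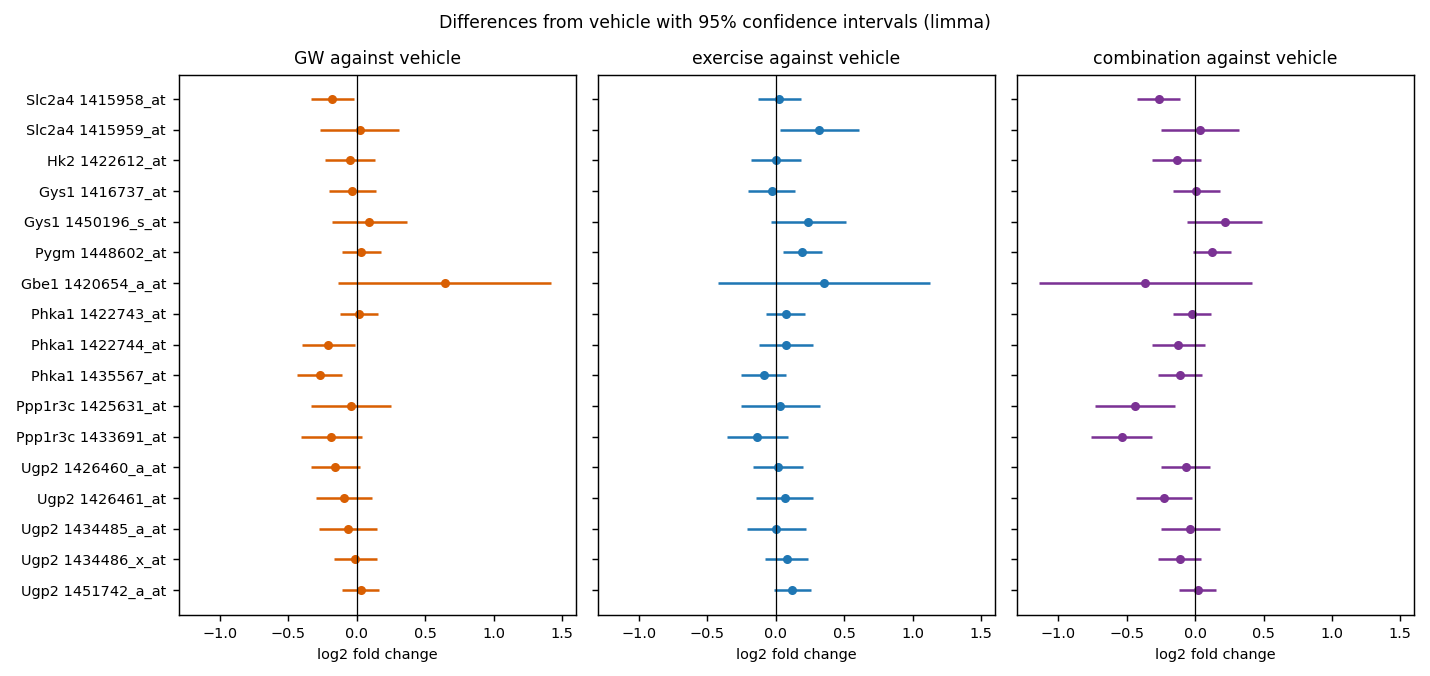
Log2 difference from vehicle for each of the 17 probe sets in GW, exercise and combination, with points for estimates and lines for 95% confidence intervals from limma. Most intervals lie within 0.5 of 0, that of Gbe1 reaches from -0.13 to 1.42 in GW, and those of Ppp1r3c in combination lie wholly below 0.

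Because no member passed the adjusted threshold, the counts at an unadjusted p under 0.05 were set beside those of all probe sets tested. In GW against vehicle, 0 members passed the adjusted threshold where 0.0958% of all probe sets did. Lower members at the unadjusted level were 3 of 17 (1 set of Slc2a4 and 2 of Phka1) against 2.75% of all, and higher members were 0 against 3.68%. The median log2 difference of the 17 was -0.04, against -0.00 over all probe sets.

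In exercise against vehicle, 0 members passed the adjusted threshold against 0.0147% of all. Higher at the unadjusted level were 2 of 17 (Pygm and a set of Slc2a4) against 5.69%, and lower were 0 against 4.74%. The median log2 difference was 0.06, against 0.01 over all. Of the 17, 13 were above 0 and 4 below, where 48.8% of all probe sets lay below 0. Training averaged over vehicle and GW1516 had 0 adjusted calls among the members against 0.0147% of all, 1 higher member (Pygm) against 4.80% and 1 lower (Ppp1r3c) against 4.29%, with a median of 0.02.

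In combination against vehicle, 0 members passed the adjusted threshold against 0.155% of all. Lower at the unadjusted level were 4 of 17 (both sets of Ppp1r3c and 1 set each of Slc2a4 and Ugp2) against 4.50%, and higher were 0 against 5.48%. The median was -0.11, against -0.00 over all. Combination against exercise had 0 adjusted calls among the members against 0.162% of all, 6 lower members against 4.59% and 0 higher against 4.59%. Those 6 were 2 sets of Ppp1r3c, 2 of Ugp2 and 1 each of Slc2a4 and Phka1. There the median was -0.14 against -0.01 over all, and 16 of the 17 lay below 0, against 51.3% of all probe sets.

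For GW1516 averaged over sedentary and trained mice, 0 members passed the adjusted threshold against 0.317% of all. Lower at the unadjusted level were 6 of 17 (2 sets each of Ppp1r3c and Phka1, 1 each of Slc2a4 and Ugp2) against 4.04%, and higher were 0 against 4.32%. The median was -0.10, against -0.00 over all, and 15 of the 17 lay below 0, against 50.7% of all probe sets. These comparisons share groups of arrays, and several probe sets read the same gene, so the counts are not independent of one another. The members also had a smaller standard error (median 0.06 for GW1516 averaged, against 0.15 over all probe sets tested). A smaller difference thus reached the unadjusted level in them, and the shares over all probe sets were not matched for this. Liver markers were highest in vehicle and fat cell markers in combination arrays 2 and 3, and their part in these counts was not tested.

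Combination against GW had 0 adjusted calls among the members, as over all probe sets (0%), and 781 of all probe sets had an unadjusted p under 0.05, in either direction. Lower members were 3 of 17 (Gbe1 and both sets of Ppp1r3c) against 2.99%, and higher were 0 against 2.76%. The interaction likewise had 0 adjusted calls (0% of all), 1 higher member (Phka1) against 3.17% and 2 lower (Gbe1 and a set of Ppp1r3c) against 3.62%.

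**Figure D4:**
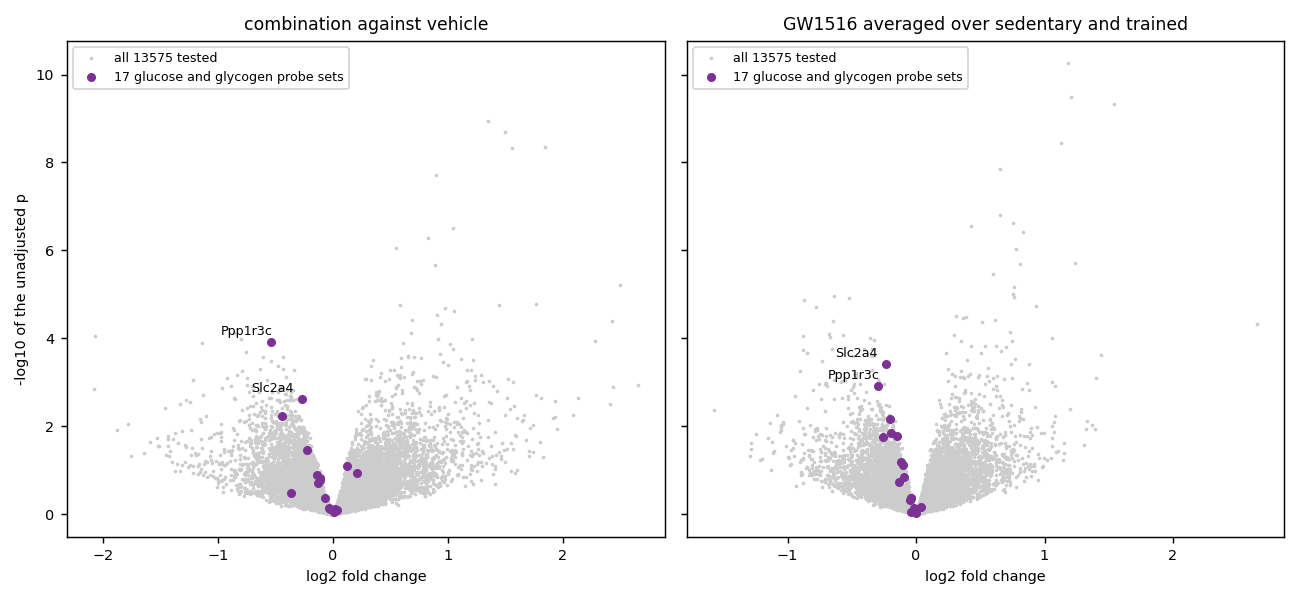
Log2 fold change against -log10 of the unadjusted p for all 13575 probe sets tested (grey) and the 17 of glucose entry and glycogen genes (purple), in combination against vehicle (left) and GW1516 averaged (right). The purple points lie mostly left of 0, with Ppp1r3c (-0.54) highest at the left and Slc2a4 (-0.24) highest at the right, below the uppermost grey points.

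The members were measured more precisely than most probe sets, with a median standard error of 0.09 for a difference between 2 groups, against 0.21 over all probe sets tested. They were also bright: apart from Gbe1, each mean log2 signal lay above that of at least 92% of the probe sets without controls. Precision was not compared at like signal, and the interval counts that follow were not made over all probe sets. The 95% interval lay within 1.5-fold in either direction for 16 of 17 probe sets in GW against vehicle, 15 in exercise and 14 in combination. Within 1.25-fold it lay for 9, 11 and 11 of the 17. The single probe set whose interval against vehicle reached beyond 2-fold was that of Gbe1.

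The wider pathway was read through a list of 97 further symbols in 13 roles, of which 64 genes with 123 probe sets were tested. In this list 1 probe set passed the adjusted threshold in any of the 8 comparisons. It belonged to Klf15, a transcription factor of muscle and liver that acts on Slc2a4 and on amino acid and fat use. Probe set 1448181_at read 359, 351 and 425 in vehicle, 169, 195 and 215 in exercise, 294, 437 and 354 in GW, and 374, 403 and 299 in combination. The 3 exercise arrays were the lowest of all 12, and the other 3 groups overlapped.

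Klf15 was higher in combination than in exercise by 0.89 ± 0.16 on the log2 scale (limma adjusted p = 0.0489), while exercise against vehicle gave -0.97 ± 0.16 (adjusted p = 0.0815). The latter passed with array weights (adjusted p = 0.0184), in the fit of only the groups compared (0.0249), without combination array 1 (0.0363), GW array 1 (0.0318) or GW array 2 (0.0497), and without combination arrays 2 and 3 together (0.0394). The call against exercise ended when any 1 of 9 arrays was left out: vehicle 1, 2 or 3 (adjusted p = 0.0541, 0.0675 and 0.0567), exercise 1, 2 or 3 (0.167, 0.138 and 0.0977), combination 1 or 2 (0.0652 and 0.269) or GW 3 (0.0841). It also ended without combination arrays 2 and 3 together, where the difference rests on combination array 1 alone (0.96, adjusted p = 0.272), with no filter (0.0513) and with no intensity trend (0.201).

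Upstream of the transporter's surface step, 0 of 16 probe sets listed for insulin signalling and 0 of 28 of GLUT4 vesicle traffic passed. The list for insulin signalling held the symbol Pdk1, which names a pyruvate dehydrogenase kinase and not a kinase of that pathway. Akt2, the kinase that relays insulin to GLUT4 vesicles, had the smallest p of the first role, with 0.41 ± 0.11 in exercise against vehicle in 1 of its 2 sets (limma adjusted p = 0.247) and 0.11 ± 0.10 in the other (0.71). Rab10, a small GTPase of those vesicles, had -0.58 ± 0.16 for the interaction in 1 of its 3 sets (limma adjusted p = 0.575), with -0.29 ± 0.10 and -0.10 ± 0.12 in the others (0.707 and 0.882). Txnip, which restrains glucose uptake, had -0.44 ± 0.11 in GW against vehicle in 1 of its 2 sets (adjusted p = 0.35) and -0.37 ± 0.21 in the other (0.814). Among the 6 probe sets of other glucose transporters 0 passed, and Slc2a3 gave -0.36 ± 0.14 in exercise against vehicle in 1 of its 2 sets (limma adjusted p = 0.389) and 0.04 ± 0.22 in the other (0.97).

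For the sugar phosphate steps 0 of 4 probe sets passed. Pgm1, a phosphoglucomutase, which links glucose 6-phosphate to glucose 1-phosphate, gave -0.27 ± 0.07 in combination against exercise (limma adjusted p = 0.236). Against vehicle, Pgm1 gave 0.24 ± 0.07 in exercise and -0.03 ± 0.07 in combination (limma adjusted p = 0.297 and 0.944). Hk1, the only other hexokinase tested, gave -0.57 ± 0.32 in combination against vehicle (adjusted p = 0.583). Gyg, the glycogenin that primes a glycogen particle, gave -0.15 ± 0.15 in combination against vehicle (adjusted p = 0.797).

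Among enzymes that break glycogen down 0 of 5 probe sets passed, and Pygl, the liver form of phosphorylase, gave 1.35 ± 0.42 in combination against exercise (limma adjusted p = 0.331). Its signal was 40.5, 91.2 and 117 in combination arrays 1, 2 and 3 and 19.7 to 39.5 in the other 9, so it was high in the arrays with high fat cell markers (4642 and 7069, against 1736 in array 1), whose part in the difference was not tested. Of the phosphorylase kinase subunits and calmodulins 0 of 5 passed, with Phka2 at 0.64 ± 0.29 for the interaction (adjusted p = 0.727). Of the phosphatase 1 subunits and inhibitors, the family to which Ppp1r3c belongs, 0 of 13 passed. Its smallest p was that of Ppp1r1a, an inhibitor of the phosphatase, with 0.84 ± 0.20 in combination against exercise (limma adjusted p = 0.138). The kinases that act on glycogen synthase had 0 of 13 (Gsk3b, -0.24 ± 0.10 for training averaged, adjusted p = 0.522). Epm2a, the glycogen phosphatase laforin, gave 0.22 ± 0.20 for training averaged (adjusted p = 0.775).

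At the unadjusted level, the 123 probe sets of the wider list had 3 higher (3.68% of all probe sets tested) and 9 lower (2.75% of all) in GW against vehicle. In exercise against vehicle 13 were higher (5.69% of all) and 5 lower (4.74%), and in combination against vehicle 6 were higher (5.48%) and 10 lower (4.50%). Combination against exercise had 5 higher (4.59%) and 10 lower (4.59%), and combination against GW had 4 higher (2.76%) and 4 lower (2.99%). For the interaction 10 were higher (3.17%) and 8 lower (3.62%), for GW1516 averaged 6 were higher (4.32%) and 9 lower (4.04%), and for training averaged 9 were higher (4.80%) and 7 lower (4.29%). Its 1 set with all combination arrays below the other 9 compares with 0.840% of all, and it had 0 sets with all drug arrays below those without, against 0.214% of all.

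The probe sets whose log2 signal followed each member most closely over the 12 arrays were listed as a description, for the member set with the highest mean signal. Ppp1r3c (1433691_at) was closest to the amino acid transporter gene Slc38a2 and the mitochondrial carrier gene Slc25a36 (r = 0.88 for both). Pygm was closest to Ldha, the lactate dehydrogenase subunit of fast muscle (r = 0.93), and to Pura (r = 0.91). Hk2 was closest to Stk17b (r = 0.92) and Pacsin3 (r = 0.90), and Slc2a4 (1415959_at) to Oxt and Socs3 (r = 0.90 for both). For Phka1 (1422743_at) these were Nlk (r = 0.88) and Msc (r = 0.83), and for Ugp2 (1451742_a_at) Krcc1 (r = 0.87) and Cpeb4 (r = 0.85). Gys1 (1416737_at) had Strbp (r = 0.86) and Rpl37a (r = 0.83), and Gbe1 had Slc38a10 (r = 0.87) and Zdhhc14 (r = 0.86). Each is the highest or second highest of the correlations over all probe sets tested, and the arrays share scaling, tissue and groups.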

How the data were processed

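Gene expression was measured in 12 arrays of quadriceps RNA, 3 per group. The deposited table holds signal intensities, linear in scale, which the authors made with MAS5 per the submitters' processing notes (version not given in the sources used here). The mean of each array, without the lowest and highest 2% of values, lay between 200.093 and 200.098, so arrays were scaled to a common level before deposit. Such scaling makes each difference relative to the other transcripts of its array. No 2 arrays had a correlation above 0.928 in log2 signal, and none was treated as a duplicate.

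Signals were log2-transformed with no pseudocount. In R 4.3.3 with limma 3.58.1, all 12 arrays were fitted with 1 mean per group and variances moderated along an intensity trend (8 residual degrees of freedom), over the 13575 probe sets left after 64 controls and the lower part by mean signal were removed. The 8 comparisons were tested two-sided at an adjusted p of 0.05 (Benjamini-Hochberg, over every probe set in the fit). An exact permutation test of 3 against 3 arrays cannot go below p = 0.1, so none was made. The number of arrays limits the precision. The procedure was tested on simulated data.

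The array annotation gave 1 symbol for 20393 probe sets, several for 691 and none for 1606, and all 8 members matched RefSeq by Entrez gene. Promoters and coordinates are RefSeq's (GRCm38.p6). The members, the wider list, the marker lists and the motifs were chosen with earlier results of these data known. All members were named, and from the wider list every gene past the threshold and otherwise the smallest p of each role. The alternatives changed the normalization (quantile, cyclic loess), the pseudocount (10.5), the filter (none, upper 40%), the moderation (no trend, robust prior) or the arrays (weights, array number as a replicate block, a fit of the compared groups alone, each array left out). Leaving out combination arrays 2 and 3 together was added after the data were seen.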

Additional observations from a re-analysis of the deposited data

How the results depend on the processing

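Over 23 alternatives, 22 of them planned, the members gave 3069 further values, of which 6 passed the threshold. The number of member probe sets past it in combination against vehicle, 0 as reported, was 1 under quantile normalization and 1 with array weights, and 0 to 1 when single arrays were left out. For GW1516 averaged it was 1 under quantile normalization and 1 with array weights. In the other 6 comparisons it was 0 under every alternative run. The 29 member results with an unadjusted p under 0.05 kept their sign in all 654 of their values, while 117 of the other 2415 values changed sign. The wider list had 0 calls with no filter, 0 with no intensity trend, 3 with only the groups compared and 0 to 2 when single arrays were left out, where 1 is reported. The normalizations moved the median of all probe sets by less than 0.1 on the log2 scale. Residual correlations of arrays that share a number ran from -0.05 to 0.10 (median 0.01), with 1 of 18 above 0.1. Those of arrays with other numbers ran from -0.08 to 0.06 (median -0.01), with 0 of 36 above 0.1. Of the 12 arrays, 8 correlated best with an array of their own number, although pairs of the same number were the fewer (18 against 36). Whether arrays of the same number were paired cannot be told from these small values. With the array number as a replicate block the members again had 0 calls, with adjusted p = 0.111 for Ppp1r3c in combination against vehicle and 0.141 for Slc2a4 with GW1516 averaged, and the wider list had 1 call, on Ppp1r1a (0.019) in place of Klf15 (0.0515). The fit of only the groups compared adds no value for the interaction and both averaged comparisons, which use all arrays, and the filter at the upper 40% left Gbe1 out. Signals near the floor limit what can be said of Gbe1.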
